A study of Glycine max with 34 samples.

Results

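The transcripts described here are 100 soybean probe sets whose signal lay higher on every array of the embryo and of the aleurone than on every array of the other seed coat layers. They were taken from the 37593 soybean probe sets of the Affymetrix Soybean Genome Array, on which a probe set is a group of short probes for a single transcript sequence. Each probe set was given a score, its lowest value over the 24 arrays of the embryonic axis, cotyledon and aleurone minus its highest value over the 8 arrays of the hourglass layer, hilum, palisade and seed coat parenchyma. Values are log2 of the deposited signal plus 16. The 100 highest scores were kept after probe sets with a symbol beginning PM, PGMPM, SLE, LOX, KTI, GY, FAD, SBP, WRKY or MYB had been set aside. The contrast of embryo and aleurone with the maternal coat layers therefore chose these transcripts, and it is given below as a description with no test. Because the score uses the lowest of the 24 arrays, a low value on any of them lowers it, so spread among the 24 arrays is not wholly independent of the rule.

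The embryo and the aleurone are both products of fertilization, while the palisade, hourglass, parenchyma and hilum tissues grow from the mother plant. The aleurone is the outer cell layer of the endosperm, and in a mature soybean it remains as a thin layer attached to the inside of the coat. During maturation an embryo makes storage proteins, oil bodies and late embryogenesis abundant (LEA) proteins, which are associated with tolerance of drying, and an aleurone is also known to hold protein and oil.

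The seeds came from Glycine max cultivar Asgrow A3237 plants grown at 22 °C in 16 h of light and 8 h of dark, and were collected at early maturation at a length of 6.0 to 7.0 mm. Compartments were cut by laser microdissection from paraffin sections of 8 microns. All groups are of the same cultivar and stage, and the labels name no treatment. The embryonic axis was sampled as shoot meristem, root meristem, plumule, epidermis, parenchyma and vascular bundle. From the cotyledon came abaxial and adaxial epidermis, abaxial and adaxial parenchyma, and vascular bundle. The seed coat gave the aleurone, hourglass layer, hilum, palisade and parenchyma, and the labels count the aleurone as a coat compartment. Whole seeds, which were not microdissected but ground and extracted with another reagent, made a further group. Of the 17 groups each has 2 arrays, labelled as biological replicates. The number of seeds in a replicate is not stated, nor is it stated whether compartments were cut from the same seeds, so p-values measure only the spread between these samples. As these are bulk samples, fewer cells of a type and less RNA per cell cannot be told apart.

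Scores of the 100 members ran from 4.73 down to 0.353 with a median of 0.878, and 40 exceeded 1 on the log2 scale. In all, 236 soybean probe sets had a score above 0, that is, no overlap between the 24 arrays and the 8. Members in places 96 to 100 had scores of 0.365, 0.363, 0.358, 0.353 and 0.353, and the next probe sets outside had 0.348, 0.342 and 0.336, so the border runs through a gradual slope. The families set aside held 13 probe sets that scored above the last member. The highest of these belonged to the seed maturation protein genes PM30 (5.39) and PM12 (4.38).

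A single gene was given for 27 members, which cover 26 genes, and the other 73 had none in the gene table used here. For all soybean probe sets the share with a single gene was 23.1%. A symbol that says more than a locus number was given for 10 members, and these are described by name. They are VPE, a vacuolar processing enzyme that cleaves storage protein precursors, and SACPD-C and SAD2, stearoyl-acyl carrier protein desaturases, which make oleic from stearic acid chains. Others are P89, an oleosin of the oil body surface, CP3, a cysteine protease, and PPCK2, a kinase that phosphorylates phosphoenolpyruvate carboxylase. MP2, a maturation protein gene whose synonym is PM2, is of the LEA type, and IF7MaT is an isoflavone 7-O-glucoside malonyltransferase. BZIP70 and PHANa are transcription factor genes of the bZIP type and of the MYB-related PHANTASTICA type. MP2 and CP3 carry PM names among their synonyms and stayed in because the rule reads the symbol alone. No 2 of the 25 member genes found in the RefSeq table lay within 10 genes of each other. The members are not all independent, since 10 of them share a probe set number with another member. A suffix that marks probes shared among similar transcripts was carried by 15 members, IF7MaT, BZIP70, CP3 and P89 among them, and near-identical copies may add to these signals.

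**Figure D1:**
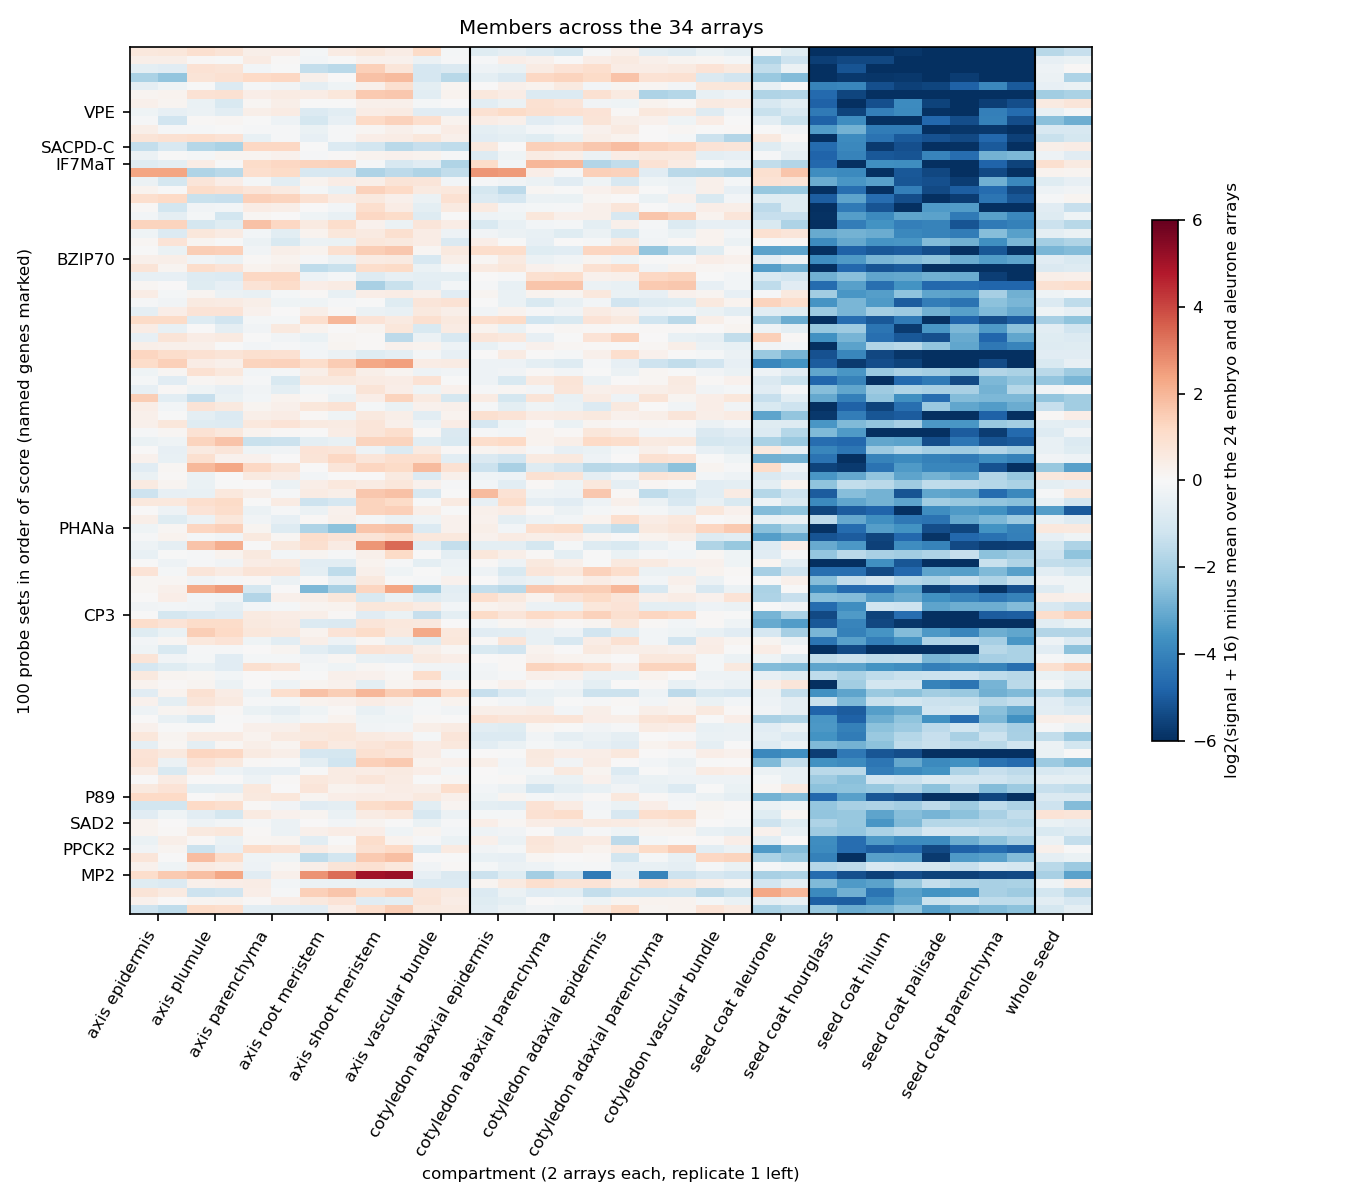
Each row is 1 of the 100 members in order of score and each column 1 of the 34 arrays. Colour gives log2(signal + 16) minus the member's mean over the 24 embryo and aleurone arrays, and black lines part the axis, cotyledon, aleurone, maternal coat and whole seed arrays. The coat columns are dark blue by construction of the rule, and many members are paler to mid blue in the aleurone.

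On the linear scale the median signal of the members was 3348 to 6068 per array in the axis and 3119 to 4404 in the cotyledon. It was 1690 and 1929 on the aleurone arrays and 204.2 to 342.7 on the coat arrays. The 95th percentile of the probe sets for other organisms was taken as the background of each array, and it ran from 104.3 to 263.9. Of the members, 97 exceeded the background on all 24 embryo and aleurone arrays, and the other 3 did so on at least 22. On the coat arrays 13 members were above background on 0 of 8, 53 on 1 to 7 and 34 on all 8. The transcripts are thus ordered between the tissues without overlap, but most of them were also measured above background in some part of the maternal coat, and "embryo and aleurone only" describes few of them. Over the array as a whole, 10274 soybean probe sets were above background on all 24 arrays, and 9367 of these (91.2%) were above it on all 8 coat arrays too. A further 15 (0.146%) were above it on none of the coat arrays, and 10 of those 15 are members.

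The highest score belonged to GmaAffx.54955.1.S1_at, a probe set with no gene in the table, which was chosen for mention after its values were seen. Its signal ran from 56286 to 133690 in the axis (median 90848) and from 28465 to 75438 in the cotyledon (median 40027). It was 36488 and 55652 in the aleurone and 23.9 to 1060 in the coat (median 240.8). The whole seed arrays read 19549 and 23420, and every array outside the coat lay far above the highest coat array.

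Among the named members VPE had the highest score, 2.48. Its signal ran from 4374 to 10985 in the axis (median 5890) and from 4581 to 17407 in the cotyledon (median 12792), was 3094 and 3954 in the aleurone, and ran from 73.7 to 543.2 in the coat (median 348.6). Both aleurone arrays lay below all embryo arrays. The whole seed arrays, which the rule did not use, read 5663 and 7087, within the range of the embryo.

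SACPD-C, with a score of 1.99, read 3440 to 30340 in the axis (median 5400) and 12796 to 45426 in the cotyledon (median 32284). It read 7603 and 9976 in the aleurone and 140.5 to 854.9 in the coat (median 270.7). Here the lowest of the 24 arrays was a plumule array, and the aleurone lay inside the axis range. The second desaturase, SAD2, varied less, with 2270 to 3466 in the axis (median 2872), 2762 to 4464 in the cotyledon (median 4008), 1278 and 1832 in the aleurone, and 255.1 to 959.3 in the coat (median 860.8). Its score was 0.407, and it was above background on all 8 coat arrays.

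IF7MaT, with a score of 1.89, read 1403 to 12983 in the axis (median 4709) and 1444 to 19473 in the cotyledon (median 5967). The aleurone arrays read 1428 and 1768, and the coat arrays 32.8 to 368.1 (median 127.5). Both aleurone arrays were at the low end of the embryo range but inside it. The 2 other probe sets of IF7MaT are not members. They scored 0.209 and -1.06, and the second exceeded the background on 5 of 34 arrays.

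BZIP70 was the most even of the named members across the 24 arrays. Its signal was 4224 to 11714 in the axis (median 8976), 6309 to 12019 in the cotyledon (median 8506), 5092 and 6806 in the aleurone, and 608.1 to 1519 in the coat (median 967.9). Its second probe set, outside the 100, scored 0.336. The aleurone arrays of this transcription factor gene lay within the embryo range, and all 8 coat arrays were above background.

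The oleosin P89 read 47024 to 106488 in the axis (median 62577) and 31523 to 71194 in the cotyledon (median 41672). It read 6385 and 7593 in the aleurone and 158.8 to 4766 in the coat (median 1070). The aleurone thus lay between embryo and coat with no overlap, and the highest coat value was 1 of the hourglass arrays. The other 2 probe sets of P89 scored -0.828 and 0.130. On the first the means were 88835 in the axis, 48118 in the cotyledon, 29116 in the aleurone and 11708 in the coat. Its highest coat array (36992) exceeded its lowest of the 24 (20832). On the second the means were 3132, 3713, 622.65 and 250.7. The order without overlap was thus not seen on every probe set of P89.

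The cysteine protease gene CP3 had the same order, with 3973 to 15167 in the axis (median 7337), 10150 to 26609 in the cotyledon (median 21654), 1470 and 2630 in the aleurone, and 130.8 to 949.1 in the coat (median 267.1). PPCK2 read 1328 to 7427 in the axis (median 4108), 2070 to 9379 in the cotyledon (median 4089), 293.7 and 521.8 in the aleurone, and 60.9 to 220.4 in the coat (median 101.7). PHANa read 733.1 to 13994 in the axis (median 4588), 1495 to 12322 in the cotyledon (median 6646), 712.3 and 1118 in the aleurone, and 53.4 to 400.8 in the coat (median 191.8). For CP3 and PPCK2 every aleurone array was below every embryo array. For PHANa root meristem replicate 2 (733.1) lay below aleurone replicate 2 (1118), while root meristem replicate 1 lay above both aleurone arrays.

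MP2 was the most variable member, with an SD of 2.44 (log2, 24 arrays). It read 523.4 to 35517 in the axis (median 3136), 35.0 to 612.6 in the cotyledon (median 400.4), 237.2 and 257.1 in the aleurone, and 4.0 to 23.6 in the coat (median 6.55). None of the coat arrays and 22 of the 24 others were above background. Its lowest cotyledon values, 35.0 in the adaxial epidermis and 46.2 in the adaxial parenchyma, stood beside 612.6 and 399.1 on the second array of the same compartments. With a score of 0.365 it sits close to the border, and its place among the 100 depends on how signals are scaled.

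**Figure D2:**
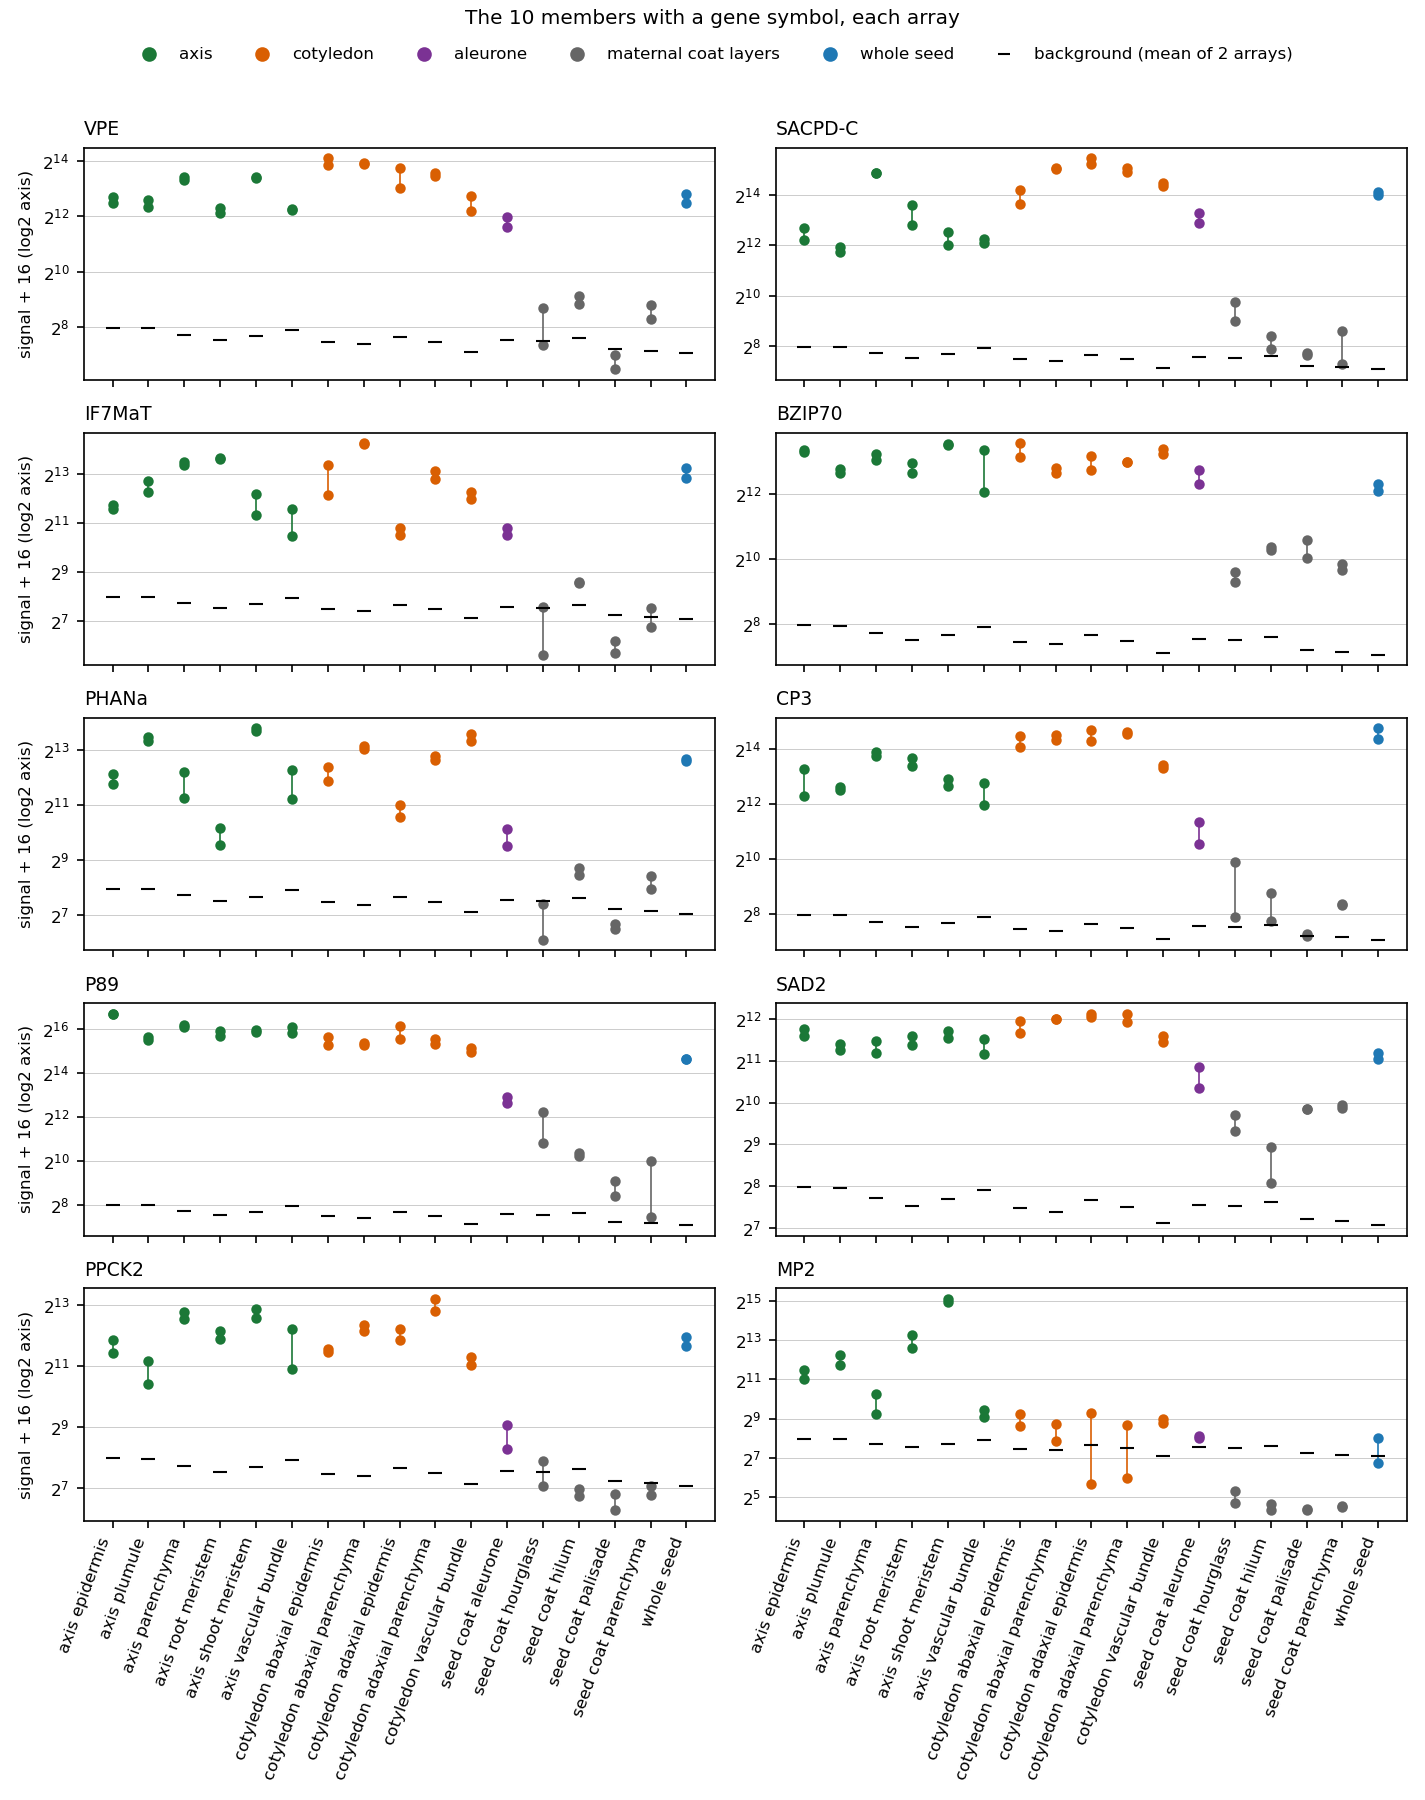
Points give the signal plus 16 on a log2 axis on each of the 34 arrays for the 10 members with a gene symbol, with a line joining the 2 arrays of a group and a dash at the mean background of its arrays. P89, CP3 and PPCK2 step down from embryo to aleurone to coat, and MP2 is highest in the shoot meristem.

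The tissue that set the score is given as a description, since the rule used these values. The lowest of the 24 arrays was an aleurone array in 48 members, 30 times replicate 1 and 18 times replicate 2. The aleurone contributes 2 of the 24 arrays, but the share over all probe sets was not counted, so nothing is read from the 48. No other compartment set the lowest value in more than 8 members. The highest coat value came from the hourglass layer in 32 members, the hilum in 25, the parenchyma in 25 and the palisade in 18.

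**Figure D3:**
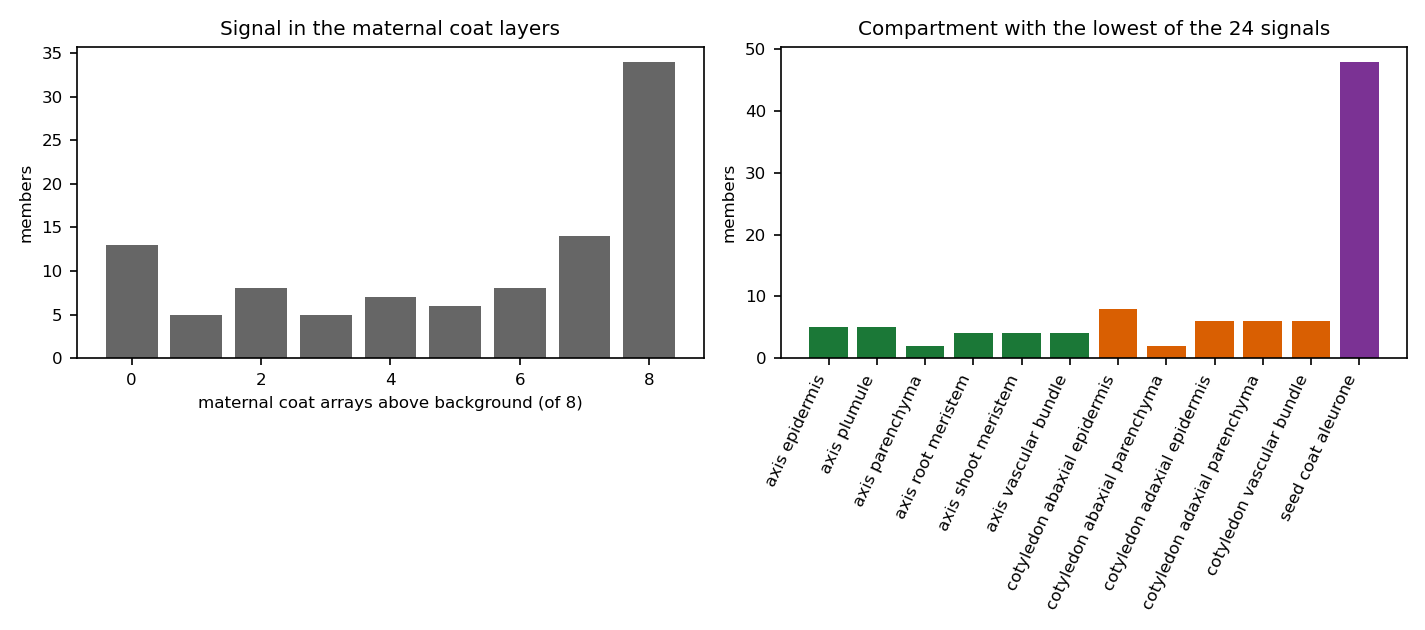
The bars give how many of the 100 members had 0 to 8 coat arrays above background, and how many had their lowest embryo or aleurone value in each compartment. Coat arrays were above background on all 8 for 34 members, and the aleurone held the lowest value for 48.

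How the sharing with the aleurone compares with other arrangements was counted over the 28441 soybean probe sets that exceeded the background on at least 2 arrays, all 100 members among them. Embryo and aleurone both lay above the maternal coat, with no overlap, in 236 probe sets (0.83%). The reverse, maternal coat above both, held for 166. The embryo lay above aleurone and coat in 211, and aleurone and coat lay above the embryo in 207. More probe sets set the aleurone apart. It lay above embryo and coat in 891 (3.13%) and below both in 471 (1.66%). The groups are unequal in number of arrays, so these counts are not on an equal footing. When the aleurone was not asked for, 440 probe sets had all embryo arrays above all coat arrays. In 236 of those (53.6%) both aleurone arrays also exceeded the coat, in 70 only 1 did, and in 134 neither did.

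The rule was also applied to the arrays of 1 replicate and read on those of the other. When another 100 probe sets were chosen by the same rule on the replicate 1 arrays alone, 76 of them had a score above 0 on the replicate 2 arrays, where 2.28% of all probe sets tested did. Of 100 chosen on replicate 2, 85 had a score above 0 on the replicate 1 arrays, where 2.16% of all did. These choices shared 69 and 70 probe sets with the 100 members. The 2 replicates come from the same tissues and the same handling. The shares over all probe sets tested are not matched for signal level, so no conclusion about the 100 members is drawn from these counts.

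Of the members, 46 were called as different between aleurone and embryo, 43 of them lower and 3 higher in the aleurone, and the rest were not called. The difference of the aleurone from the mean of the 11 embryo compartments was tested with limma on the 17 groups, and a probe set was called where the Benjamini-Hochberg adjusted p over the 28441 was under 0.05 and the log2 difference at least 1. Of all probe sets tested 11.8% were called lower and 11.1% higher, and of the 10274 above background on all 24 arrays 12.1% and 9.07%. The median log2 difference was -0.80 over the members and 0.01 over all tested, and 85 members were below 0. On the linear scale the aleurone mean was 52.5% of the embryo mean at the median member, from 4.32% to 391%. Presence in both tissues thus did not go with equal levels in the 46 called members.

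This comparison has its own limits. The aleurone is 1 compartment with 2 arrays, and the spread among the embryo compartments is not in the error. With the 16 compartment means as units, 17 members were called lower and 0 higher, where 1.9% of all were lower and 2.11% higher. Among the 440 probe sets with the embryo above the coat whatever the aleurone did, 58.6% were called lower and 1.14% higher, with a median of -1.31. All 100 members are among these 440. The rule itself removed the probe sets whose aleurone signal fell to the level of the coat. It thus favoured the smaller median reduction of the members, and nothing is read from that difference.

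Of the 10 named members 8 were called lower. PPCK2 differed by -3.26 ± 0.28 (SE, log2; limma, adjusted p = 5.7e-10), P89 by -2.97 ± 0.34 (adjusted p = 8.48e-08) and CP3 by -2.59 ± 0.32 (adjusted p = 3.38e-07). These 3 also passed on the compartment means (limma, adjusted p of 0.0099 for PPCK2, 0.0253 for P89 and 0.0183 for CP3). For the member probe sets of the kinase, the oleosin and the protease the difference was thus called also with the spread among embryo compartments in the error.

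PHANa (-2.40 ± 0.29), MP2 (-2.07 ± 0.57), IF7MaT (-1.77 ± 0.34), VPE (-1.26 ± 0.24) and SAD2 (-1.06 ± 0.20) were called in the array-level fit alone. Their limma adjusted p on compartment means was 0.292, 0.502, 0.463, 0.374 and 0.179. SACPD-C (-0.60 ± 0.24; limma adjusted p = 0.0681) and BZIP70 (-0.51 ± 0.22; limma adjusted p = 0.078) were not called. MP2 lost its call without aleurone replicate 1 (limma adjusted p = 0.0829) or replicate 2 (limma adjusted p = 0.0693), and SAD2 without aleurone replicate 1 (-0.81).

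Against the 3 embryo epidermis compartments alone, the outer layers of the embryo, 34 members were lower and 5 higher in the aleurone, with a median log2 difference of -0.76. Of all probe sets tested 11.1% were lower and 11.4% higher in that comparison. Both aleurone arrays lay below all 22 embryo arrays in 28 members (4.86% of all probe sets tested), and above all of them in 4 (6.92% of all).

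GmaAffx.16092.1.A1_at, with no gene in the table and chosen for mention after its values were seen, ran the other way. It read 18468 and 23724 in the aleurone, 2016 to 15231 in the axis (median 7406), 1542 to 3700 in the cotyledon (median 2106) and 212.4 to 1200 in the coat. The aleurone exceeded every embryo array and the log2 difference was 2.33 ± 0.24 (SE; limma adjusted p = 1.189e-08), the highest among the members. On compartment means its limma adjusted p was 0.10. In the whole seed it read 1522 and 2219, near the cotyledon level.

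Markers of the maternal coat were measurable in the aleurone sample. AGL1L, a MADS-box gene, read 4714 and 5205 there, 9698 to 23186 in the coat and at most 285.8 in the embryo. Summed over 5 coat markers (AGL1L, IFR1, MYB73, GASA9 and PRP3), the signal was 33723 and 51712 in the aleurone, 80549 to 254824 in the coat and 591.9 to 10294 in the embryo. All 5 were above background on both aleurone arrays, and the aleurone mean stood at 7.37% (MYB73) to 92.9% (PRP3) of the coat mean. Summed over GY1, GY2, KTI3 and FAD2-1A, 4 storage genes of the cotyledon, it was 1320 and 5853 in the aleurone and 323.1 to 11396 in the coat. In the cotyledon that sum was 16971 to 206550 and in the axis 3421 to 59685. MFT, the marker used for the aleurone, read 10194 and 14905 there and 48.1 to 453.1 in the coat. It read 3531 to 22195 in the cotyledon and 222.3 to 11712 in the axis. The part of the coat and storage gene signal in the lower aleurone levels of the members was not tested.

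**Figure D4:**
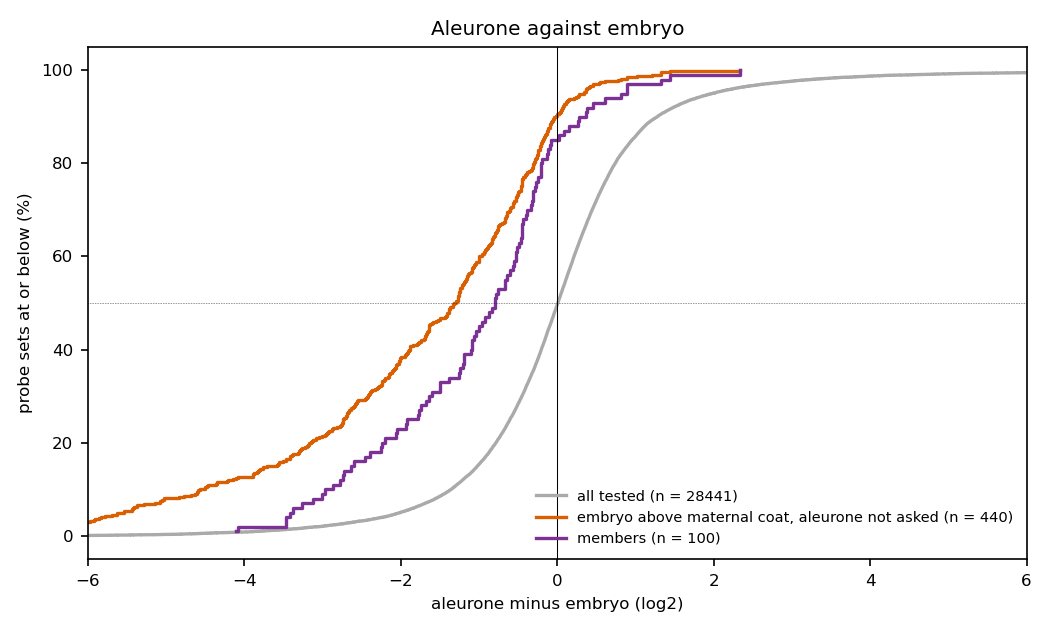
Each line gives the percentage of probe sets at or below a log2 difference of aleurone minus embryo, for the 100 members, the 440 probe sets with embryo above coat, and all 28441 tested. The members (median -0.80) lie between all tested (0.01) and the 440 (-1.31). The 440 include the members, which the rule chose with their aleurone above the coat.

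Within the 12 embryo and aleurone compartments the levels of the members were not constant. By the limma F test 75 of 100 differed among the 12 at an adjusted p under 0.05, where 48.8% of all probe sets tested did, and 63.3% of the 10274 above background on all 24 arrays. The median SD over the 24 arrays was 0.678 (log2) for the members and 0.532 for those 10274. In 48 members none of the 5 contrasts given here and below (cotyledon, aleurone, epidermis, vascular bundle and meristems) was called, and 22 of these did not pass the F test either. BZIP70 was among the 22, with an adjusted p of 0.0683 in the limma F test. How many of all probe sets were called in none of the 5 was not counted. Nothing is therefore read from the 48 and the 22.

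Cotyledon and axis were compared on compartment means with limma. In the cotyledon 1 member, SACPD-C, was called higher and 6 were called lower, where 1.08% of all probe sets tested were higher and 0.858% lower (0.934% and 0.954% of the 10274 above background on all 24 arrays). The median log2 difference was -0.06 for the members and -0.07 for all. A difference of at least 1 in size was measured in 10 members, 3 of them not called, and in 11.7% of all probe sets tested. SACPD-C was higher by 1.95 ± 0.48 (SE; limma adjusted p = 0.0455). MP2 was called lower by -3.53 ± 0.79 (limma adjusted p = 0.0292), and GmaAffx.54955.1.S1_at by -1.06 ± 0.27 (limma adjusted p = 0.0494). CP3 stood at 1.25 ± 0.33 and was not called (limma adjusted p = 0.0604).

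These calls sit close to the threshold. SACPD-C lost its call without 1 array of the axis epidermis (1.91), root meristem (1.88), axis vascular bundle (1.96), abaxial epidermis (1.89), adaxial epidermis (1.97), hourglass layer (1.95) or coat parenchyma (1.95), with limma adjusted p from 0.0501 to 0.0604. MP2 lost it without adaxial epidermis replicate 1 (-3.16; limma adjusted p = 0.0568). Without the 6 arrays whose hybridization controls exceeded 2 times the median, SACPD-C differed by 1.63 (limma adjusted p = 0.197) and MP2 by -3.52 (limma adjusted p = 0.128). Among those 6, the plumule and the axis epidermis lost both arrays each, and the axis vascular bundle and the aleurone 1 each. The control level (ratio to the median) was 1.08 to 3.32 on axis arrays and 0.580 to 1.46 on cotyledon arrays. It thus cannot be fully told apart from the organ. With it as a covariate SACPD-C differed by 1.79 (limma adjusted p = 0.408) and MP2 by -4.235 (limma adjusted p = 0.236). When 1 of the 16 compartments was left out, SACPD-C lost its call in 12 runs and MP2 in 5.

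Embryo epidermis differed from embryo parenchyma in 12 members. Of these 4 were higher and 8 lower in the epidermis, where 5.78% of all probe sets tested were higher and 5.95% lower (3.85% and 3.96% of the 10274). Among the lower ones were IF7MaT (-1.87 ± 0.27; limma adjusted p = 7.55e-06) and SACPD-C (-1.07 ± 0.19; limma adjusted p = 0.000155). LOC100804797, whose synonyms ICE5 and ICE6 name a bHLH transcription factor and which was chosen for mention after its values were seen, was lower by -1.26 ± 0.13. SACPD-C dropped under a difference of 1 without axis epidermis replicate 1 (-0.99) or abaxial epidermis replicate 2 (-0.97), and to -0.33 without the 6 arrays of bright hybridization controls (limma adjusted p = 0.335). Those 6 include both axis epidermis arrays, so that value rests on the cotyledon epidermis alone.

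In the vascular bundle of axis and cotyledon, set against parenchyma, 1 member was higher and 12 were lower, where 6.4% of all were higher and 4.49% lower (3.87% and 3.9% of the 10274). Of the 10 named members 5 were among the lower, IF7MaT (-1.95 ± 0.31), SACPD-C (-1.64 ± 0.22), CP3 (-1.30 ± 0.28), PPCK2 (-1.28 ± 0.25) and VPE (-1.18 ± 0.21), with limma adjusted p from 3.15e-06 to 0.00168. LOC100804797 was lower by -1.54 ± 0.14. PPCK2 fell under a difference of 1 without axis vascular bundle replicate 1 (-0.96). These named transcripts, of a desaturase, 2 proteases, a malonyltransferase and a kinase, were thus higher in the ground tissue of the embryo than in its vascular bundles.

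The meristems of root and shoot, set against the other 4 axis compartments, were higher in 5 members and lower in 2, where 1.65% of all probe sets tested were higher and 3.62% lower (0.983% and 1.67% of the 10274). MP2 was higher by 3.43 ± 0.47 (SE; limma adjusted p = 1.98e-05). Its signal was 31655 and 35517 in the shoot meristem, 6299 and 9932 in the root meristem, 3389 and 4801 in the plumule, and 2042 and 2883 in the axis epidermis. In the axis parenchyma it was 597.3 and 1208 and in the axis vascular bundle 689.5 and 523.4. All 4 meristem arrays thus exceeded the other 8 axis arrays. LOC100306353, chosen for mention after its values were seen, was lower in the meristems by -1.12 ± 0.26.

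The contrast of epidermis with parenchyma differed between cotyledon and axis in 5 members, 4 of them higher in the cotyledon, where 2.28% of all probe sets tested were higher and 1.07% lower (2.09% and 0.798% of the 10274). SACPD-C was the clearest named case, with a difference of 2.05 ± 0.41 (SE; interaction in limma, adjusted p = 0.00286). In the axis the epidermis read 4747 and 6507 and the parenchyma 30340 and 29886, a log2 difference of -2.43. These 2 axis epidermis arrays had the brightest hybridization controls of all, at 3.32 and 3.23 times the median. The interaction could therefore not be computed without the bright arrays. In the cotyledon the adaxial epidermis read 38622 and 45426 and the abaxial epidermis 19003 and 12796. The parenchyma below them read 34415 and 31037 on the adaxial side and 34416 and 33532 on the abaxial side, and the log2 difference over both sides was -0.38. The desaturase transcript was thus lower in the epidermis of the axis than in its parenchyma, while in the cotyledon the 2 sides went opposite ways.

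PHANa showed the reverse order, with -1.44 in the cotyledon and 0.22 in the axis, a difference of -1.67 ± 0.47 (interaction in limma, adjusted p = 0.0486). Its signal in the adaxial epidermis, 2011 and 1495, was below that of the adaxial parenchyma, 6308 and 6983, while the axis epidermis read 3426 and 4477 and the axis parenchyma 4699 and 2397. The call was lost when any of 25 of the 34 arrays was left out, and the difference was -1.18 without axis parenchyma replicate 2 (limma adjusted p = 0.323). PHANa read 13207 and 13994 in the shoot meristem and 1142 and 733.1 in the root meristem.

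**Figure D5:**
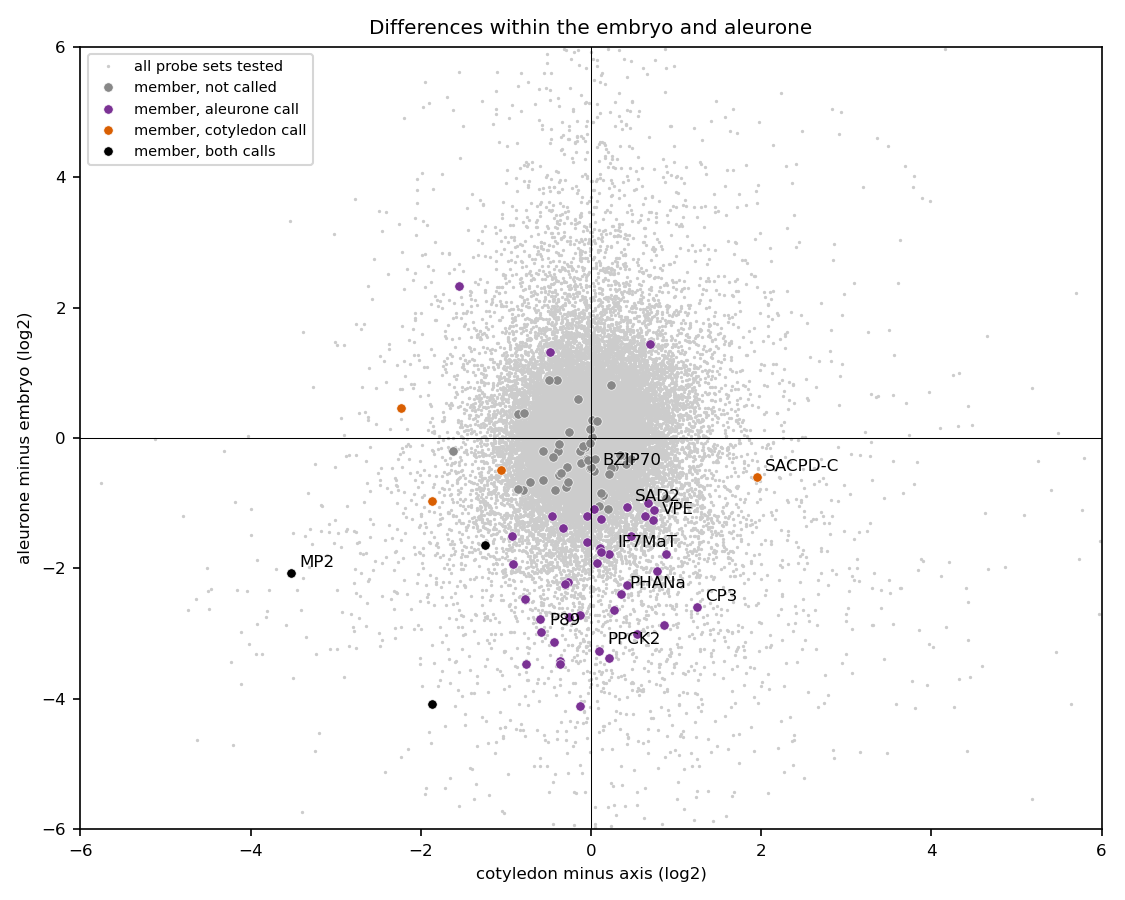
Each point is a probe set, with the log2 difference of cotyledon minus axis on the horizontal axis and of aleurone minus embryo on the vertical axis; grey dots are all 28441 tested and larger dots the members, coloured by call. Of the 100 members 85 lie below 0 on the vertical axis, and 10 lie at least 1 away from 0 on the horizontal one, with SACPD-C and MP2 at its ends.

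The whole seed arrays gave a measure the rule had not used, although the whole seed contains all of these tissues. Both whole seed arrays were above background for 98 members, where 71.4% of all probe sets tested were, and 98.5% of the 10274 above background on all 24 arrays. Both lay above all 8 coat arrays for 87 members, where 12.5% of all probe sets tested did, 1 of them did not for 10, and neither did for 3. The rule had picked these coat arrays to be low, so nothing is read from that count. The whole seed lay within the range of the 24 arrays for 65 members and below it for 22. The shares of all probe sets in these positions were not counted, so nothing is read from these counts. The whole seed mean was 54.4% of the embryo mean at the median member, from 3.51% to 176%. MP2 read 90.1 and 239.4, above the coat but below most of the embryo, and CP3 read 21324 and 27671, below and above the cotyledon median of 21654. Whole seed RNA was extracted by another method and includes tissues that were not microdissected, and the part of these in its values was not tested.

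Few members were on the lists of gene groups known for maturing seeds, and the rule had set several such families aside. Of 71 probe sets tested for seed regulators and abscisic acid signalling, 2 had a score above 0 and 1 is a member, BZIP70. VPE is the single member of a list of 18 probe sets for protease inhibitors and vacuolar processing. A list for LEA proteins and dehydrins, matched by symbol and made up mostly of PM genes, also took in genes of other kinds such as RAB2 and RAB7P, which encode small GTPases. It had 11 of 42 probe sets with a score above 0, and a median score of -1.52 against -2.52 for all tested. Of the 42, 15 were called lower and 2 higher in the aleurone than in the embryo, where 11.8% and 11.1% of all probe sets tested were. In the meristems 10 were called higher and 0 lower than in the other axis compartments, where 1.65% and 3.62% of all were, with a median of 0.51 against -0.01 for all. MP2, not on that list by its symbol, was likewise called lower in the aleurone and higher in the meristems. Its aleurone call was lost against the 3 embryo epidermis compartments (-1.18, limma adjusted p = 0.181). The aleurone arrays of MP2 also lay within its cotyledon range. Lists for raffinose and sugar metabolism (11 probe sets), heat shock proteins (27), soyasaponin (9), photosynthesis (15) and redox proteins (59) had 0 scores above 0, and with 0.83% of all probe sets tested above 0 little can be read from a 0 in lists of this size. The oil body list held a single probe set by its symbols and did not include P89.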

How the data were processed

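The authors deposited 1 table of probe set intensity on a linear scale, made with GCOS 1.3 per the submitters' processing notes; the sources used here give no algorithm or settings. Per the labels, 2 ng of RNA per sample was amplified and labelled with biotin. The mean over each array without the outer 2% on each side was 500.1, so arrays had been scaled alike. No array duplicated another, and replicates had a Pearson's r of 0.870 to 0.956 across probe sets (not independent units). The number of arrays limits the precision.

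Scores used log2 of signal plus 16, which shrinks differences of dim probe sets. Tests used limma 3.58.1 in R 4.3.3 (lmFit, contrasts.fit, eBayes with intensity trend), with Benjamini-Hochberg adjustment over 28441 soybean probe sets above the 95th percentile of other-organism probe sets on at least 2 arrays. Cotyledon and axis were compared on 16 compartment means in 4 regions, and all else on 34 arrays in 17 groups. The scripts were tested on simulated data. Changes of 1.5 (log2) were recovered in 31% of cases for cotyledon against axis and 47% for aleurone against embryo. Changes of 3 were recovered in 86% and 89%, with 8 false calls in each comparison. In the simulation 100 probe sets were changed at each size, drawn from all tested whatever their signal. In the data 6515 were called for the aleurone. The simulated rates thus do not carry over to the members or to the false calls in the data. A member that was not called may still differ. Summaries came from pandas 2.3.3 in Python 3.11.15, and figures from matplotlib 3.10.9.

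The members, gene lists and tests were chosen with earlier results of these data known. Named members are those whose symbol says more than a locus number. Gene names came from the platform annotation and synonyms and neighbours from RefSeq Glycine_max_v4.0. Promoter sequences were not used here, so the planned motif search was not run. Alternatives were other pseudocounts, scalings, filters, weights, blocks and left-out arrays or compartments.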

Additional observations from a re-analysis of the deposited data

Results flagged for a closer look

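The epidermis contrast of 2 named members differed between the organs by a direct test. For SACPD-C the epidermis minus parenchyma difference was higher in the cotyledon than in the axis by 2.05 (log2). For PHANa it was lower in the cotyledon, by -1.67 (log2), and this call was lost in most of the alternatives run. Both tests use the 2 axis epidermis arrays, whose hybridization controls were the brightest of all.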

How the results depend on the processing

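The count of members called between cotyledon and axis (7) fell to 4 with no filter on dim probe sets, 4 without the 6 bright arrays, 4 with no intensity trend and 1 with the level of the hybridization controls as covariate. It was 3 without the axis plumule, root meristem, shoot meristem, axis vascular bundle, abaxial epidermis or adaxial epidermis, 2 without the abaxial parenchyma, 1 without the adaxial parenchyma and 4 without the hilum. It ranged from 3 to 7 when single arrays were left out, being 3 without adaxial epidermis replicate 1 and 4 without root meristem replicate 2, axis vascular bundle replicate 1 or hourglass replicate 1. Over all probe sets, 551 calls became 169 without the bright arrays, 28 with the covariate, 1493 with array weights, 1258 with the compartment as a random block and 212 to 688 without single compartments. Cotyledon calls split 307 higher to 244 lower, and 272 to 287 with 75th percentile scaling. CP3 gained a cotyledon call in 9 settings, for example with quantile normalization (limma adjusted p = 0.0472).

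For the aleurone, 46 calls became 17 on compartment means (6515 and 1141 over all probe sets), and 39 without the bright arrays, with 37 to 48 when single arrays were left out. The ranges on leaving out an array were 11 to 14 for the epidermis (12), 10 to 17 for the vascular bundle (13), 6 to 9 for the meristems (7) and 3 to 7 for the difference between organs (5). That last count was 2 with a pseudocount of 1, 2 with array weights and 3 without axis parenchyma replicate 2, and over all probe sets 952 became 532 with array weights and 591 without that array. It could not be computed without the bright arrays. In the epidermis contrast MP2 gained a call without adaxial epidermis replicate 1 (1.37), and PHANa without axis parenchyma replicate 2 (-1.05).

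Of the 100 members, 86 to 100 stayed when an array was left out, 91 with quantile normalization, 93 with 75th percentile scaling, 81 without the bright arrays, 76 on compartment means, 69 on replicate 1 alone, 70 on replicate 2 alone and 33 when means replaced the lowest and highest values. Of the named members, those that left the 100 on leaving out an array were MP2, P89, PPCK2 and SAD2, and on replicate 1 alone MP2, PHANa, PPCK2 and SAD2. No call of the named members reversed its direction in the alternatives run, and for the other members only the counts were compared.

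The deviations of same-numbered samples correlated from -0.087 to 0.153 over 136 pairs of groups, with 4 over 0.1. Such low correlations do not settle whether same-numbered samples came from the same seeds, which is not stated. With a replicate block, calls were 47 for the aleurone, 12 for the epidermis, 14 for the vascular bundle, 7 for the meristems, 4 for the difference between organs and 75 by the F test. Cotyledon and axis were fitted with a replicate block only together with the compartment as a random block, which gave 8 calls with the replicate block and 8 without it.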
